A study of Danio rerio with 4 samples.

Results

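The genes described here encode protein factors that start and extend polypeptide chains on the cytosolic ribosome, along with proteins that modify or inhibit these factors. All are called factor genes below. They were taken from the livers of fasted zebrafish larvae as every protein-coding gene whose symbol begins with eif (eukaryotic initiation factor) or eef (eukaryotic elongation factor) followed by a digit. The rule found 74 of 16405 genes, of which 15615 were protein-coding. There were 13 eif2, 16 eif3, 21 eif4 and 14 eef genes, and the 10 remaining genes were eif1, eif5 and eif6 genes. No measured value entered the rule.

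The study asked how loss of pex5, the receptor that carries enzymes into peroxisomes, altered gene expression in the fasted liver. Whole livers of 6 dpf (days post fertilization) larvae were used, and both genotypes were fasted. WT was represented by replicates 1 and 4 and the pex5 homozygous mutant (pex5 KO) by replicates 1 and 2. The pex5 KO line carries a CRISPR/Cas9 frameshift deletion from a single founder, and how many livers entered each library is not given in the sources used here. Since the labels do not say that the libraries came from separate animals, p-values measure only the spread between these libraries, which may be technical. Genotypes were taken as labelled, and pex5 itself was not analysed here.

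Initiation begins when eIF2, bound to GTP, delivers the initiator tRNA to the small ribosomal subunit. The large eIF3 complex holds the assembly together, and the eIF4 factors bring in the mRNA by its cap. After the subunits join, eEF1A delivers each charged tRNA and eEF2 moves the ribosome along the mRNA. Cells restrain the process when nutrients are short, through kinases that phosphorylate eIF2 alpha, through 4E-BP proteins that hold the cap-binding factor eIF4E when mTORC1 is inactive, and through the eEF2 kinase. These controls act largely on proteins, which these libraries did not measure, and the values below are transcript levels. The study itself reported more phosphorylated 4E-BP1 in fasted pex5 KO larvae, by western blot of whole lysates.

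Levels are given as TMM, counts of unique transcript tags scaled so that the libraries can be compared. A tag is read near the 3′ end and each molecule gives a single tag, so levels need no scaling by transcript length. How completely the tags of each gene were mapped and assigned was not tested, which limits comparisons of level between genes. The libraries held 1217737 to 1425834 reads, a single read was worth 0.691 to 0.785 TMM, and RNA of the mitochondrial genome took 34.3% to 37.5% of the reads. A difference is the mean log2(TMM + 1) of pex5 KO minus that of WT, and for genes with few reads this scale makes changes look smaller than they are. limma was run on the 3349 genes that averaged 10 TMM or more, of which 45 were factor genes. Log2 differences of single genes are given ± SE from that fit. The 45 comprised 6 eif2, 14 eif3, 11 eif4, 7 eef and 7 eif1, eif5 and eif6 genes.

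The hepatocyte markers, 10 of 10 present, summed to 142782 and 133997 TMM in WT and to 193671 and 190968 TMM in pex5 KO and were thus abundant in every library. The higher sums in pex5 KO came largely from apoa2, with 67534 and 71063 TMM in WT and 123993 and 118820 TMM in pex5 KO. Both mutant libraries were also higher for tfa and serpina1l and lower for fgb and fgg, and the other hepatocyte markers overlapped between genotypes. The libraries also held RNA of neighbouring tissues in unequal amounts. The 9 exocrine pancreas markers summed to 1314 and 3240 TMM in WT (replicates 1 and 4) and to 2210 and 1467 TMM in pex5 KO (replicates 1 and 2), with cela1.1 at 0. Heart and muscle markers, 9 of 10 present, summed to 277, 937, 333 and 391 TMM in the same order. Except in WT replicate 1, most of this came from the skeletal muscle genes mylz3 and tnnt3b. The cardiac gene myl7 went by genotype instead, with 87.3 and 132 TMM in WT and 15.0 and 14.5 TMM in pex5 KO. So did cmlc1, tnnt2a and nppa, while myh6 overlapped, with 6.39 and 3.93 TMM in WT and 0.752 and 6.91 TMM in pex5 KO. The actc1a gene had at most 1.42 TMM in a library. Blood markers, 6 of 6 present, summed to 593 and 349 TMM in WT and to 1030 and 930 TMM in pex5 KO, so their sums also separated the genotypes. Singly, hbae3 (321 and 196 TMM in WT, 597 and 616 TMM in pex5 KO) and hbbe2 did so, while hbae1.1, hbbe1.1, slc4a1a and alas2 overlapped. The 5 intestine markers summed to 4.97, 25.1, 244 and 4.15 TMM, and pex5 KO replicate 1 stood apart through vil1. The part of these tissues in the differences between genotypes was not tested. The 4 neural markers summed to 648, 37.7, 62.4 and 456 TMM. In bulk tissue, fewer cells of a type and less RNA per cell cannot be told apart. Among the 45 factor genes tested, libraries of unlike genotype resembled each other most: the median absolute log2 difference was 0.21 between WT replicate 1 and pex5 KO replicate 2, against 0.39 within WT and 0.27 within pex5 KO. It was largest, at 0.47, between WT replicate 4 and pex5 KO replicate 2. Over all 3349 genes tested the same pairs were the closest (0.33) and the farthest (0.45), though the WT pair was almost as far apart (0.44).

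The fasted liver devoted 1.25% and 1.6% of its reads to the 74 genes in WT and 1.26% and 1.13% in pex5 KO. A few genes carried most of this. The 5 most abundant factor genes, eef2b, eef1a1l1, eif5a, eef1g and eif1, held 69.1% to 72.5% of the factor genes' TMM in a library and were each among the 100 most abundant of all genes. At the other end, 21 of the 74 genes had at most 10 reads in every library, and the helicase gene eif4a1b had no read, which allows at most 2.07 to 2.36 TMM (3 reads) in a library.

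**Figure D1:**
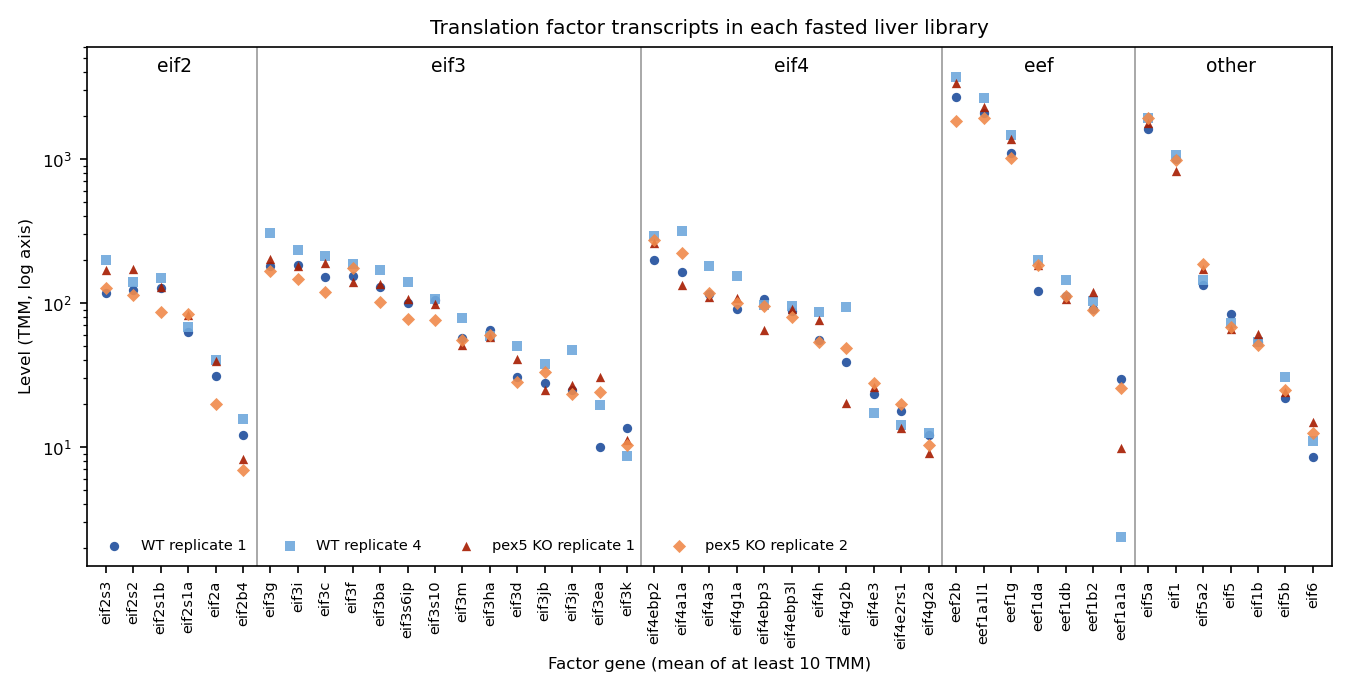
Level of each of the 45 factor genes that averaged 10 TMM or more in each of the 4 libraries, in TMM on a log axis, by group (other: eif1, eif5 and eif6 genes) and in falling order of mean. The light blue squares of WT replicate 4 are the highest point for 30 of the 45 genes, and eef1a1a stands apart by its spread.

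No factor gene passed the test between genotypes. In limma 0 of 45 had an adjusted p under 0.05 and 0 had an unadjusted p under 0.05, and limma with voom weights called 0 as well. The background was small: 0% of all 3349 genes passed the adjusted threshold and 3.61%, or 121 genes, had an unadjusted p under 0.05. The adjusted p was 1.00 for every one of the 45. The mean was lower in pex5 KO for 32 genes and higher for 13, that is 71.1% lower against 49.5% of all genes tested. Both pex5 KO libraries lay above both WT libraries for 5 genes (11.1%), against 16.9% of all genes tested. They lay below both for 9 genes (20%), against 13.5% of all genes.

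Side by side, the groups had median log2 differences of -0.18 for eif2, -0.26 for eif3, -0.17 for eif4 and -0.11 for eef. The eif1, eif5 and eif6 genes had a median of 0.06 and all genes tested one of 0.00, with quartiles of -0.26 and 0.29. The mean was lower in pex5 KO for 4 of 6 eif2, 13 of 14 eif3, 8 of 11 eif4 and 4 of 7 eef genes. Most of these differences were smaller than the gap between the WT libraries, which exceeded the difference between genotypes for 33 of the 45 genes (73.3%, against 66.3% of all genes). That was so for 3 of 6 eif2, 12 of 14 eif3, 8 of 11 eif4 and all 7 eef genes.

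**Figure D2:**
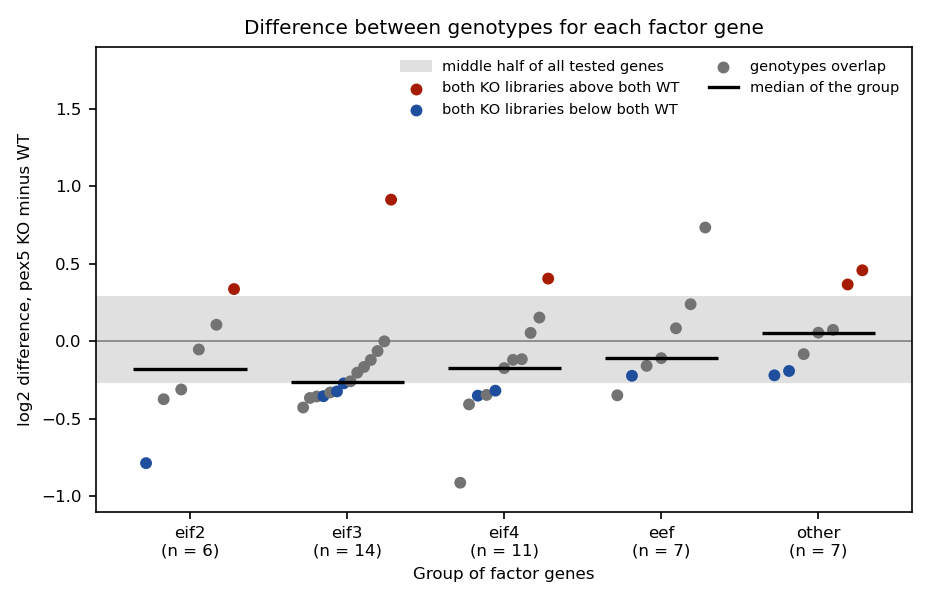
Difference between genotypes in log2(TMM + 1) for each of the 45 factor genes tested, pex5 KO minus WT, with the median of each group as a bar and the interquartile range of all 3349 genes tested in grey. The eif3 points lie below 0 except for eif3ea and eif3k, which lies at about 0, and no point passed the test.

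WT replicate 4 was the highest library for 30 of the 45 genes (66.7%, against 29.3% of all genes tested) and pex5 KO replicate 2 the lowest for 19 (42.2%, against 22.5%). It exceeded WT replicate 1 for 37 of the 45 genes (82.2%, against 54.4%). Without WT replicate 4, the count of genes with a lower mean in pex5 KO was 22 of 45, and the medians were 0.03 for eif2, -0.06 for eif3, -0.03 for eif4 and 0.02 for eef. Without pex5 KO replicate 2 the count was 25 and the medians were 0.16, -0.13, -0.21 and 0.09. Without WT replicate 1 the medians were -0.46, -0.51, -0.35 and -0.32, and without pex5 KO replicate 1 they were -0.46, -0.45, -0.21 and -0.18. The lower medians of eif2 and eef therefore rested on WT replicate 4 and pex5 KO replicate 2, and those of eif3 and eif4 kept their sign but not their size. The pancreas and muscle marker sums were also highest in WT replicate 4, and the hepatocyte, blood and neural marker sums were lowest there. The part of these tissues in the group medians was not tested.

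Shares of reads were likewise highest in WT replicate 4 for every group. The eif3 genes took 0.131% and 0.174% of the reads of WT replicates 1 and 4, and 0.123% and 0.112% of those of pex5 KO replicates 1 and 2. For the eif4 genes the shares were 0.0990%, 0.146%, 0.0894% and 0.109%. The eef genes took 0.658%, 0.873%, 0.708% and 0.530%, more than all eif genes together in every library except pex5 KO replicate 2. Only the eif3 group had both pex5 KO shares under both WT shares, and this did not hold for its summed TMM, which was 1246 and 1662 in WT and 1299 and 1106 in pex5 KO.

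**Figure D3:**
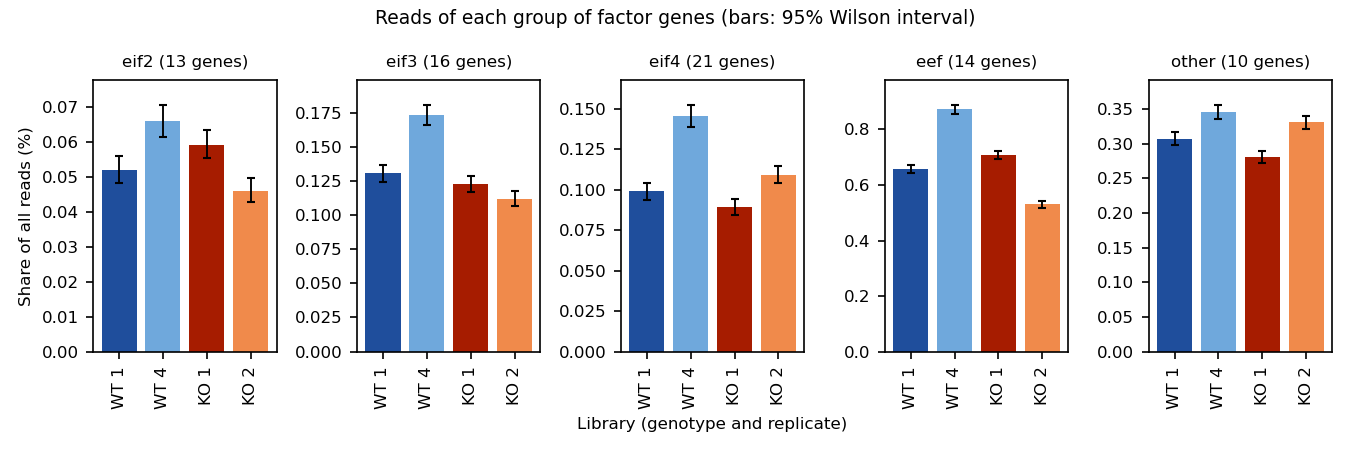
Share of all reads of a library taken by each group of factor genes (other: eif1, eif5 and eif6 genes), in percent, with 95% Wilson intervals for counting error only. The vertical scales differ between panels, and the highest bar of every panel is WT replicate 4, with 0.873% for eef and 0.174% for eif3.

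Of the eif2 genes, the 4 that encode the subunits of eIF2 were the most abundant. The alpha subunit, whose phosphorylation shuts down initiation, is encoded by a pair of zebrafish genes. eif2s1a (ENSDARG00000005827, chromosome 17 of GRCz11) stood at 62.4 and 68.3 TMM in the WT libraries and at 81.9 and 83.6 TMM in the pex5 KO libraries. Both mutant libraries were higher, with a ratio of means of 1.27 and a log2 difference of 0.34 ± 0.25 (95% interval -0.31 to 0.98). Its partner eif2s1b had 126 and 149 TMM in WT and 129 and 86.4 TMM in pex5 KO, a log2 difference of -0.37 ± 0.31, with the genotypes overlapping. eif2s1a accordingly gave 33.1% and 31.4% of the reads of the pair in WT and 38.8% and 49.2% in pex5 KO. The share was highest in pex5 KO replicate 2, where its Wilson interval of 43.0% to 55.4% lay above both WT intervals, while that of pex5 KO replicate 1 (33.3% to 44.6%) overlapped them. Their sum did not separate the genotypes, with 189 and 218 TMM for WT and 211 and 170 TMM for pex5 KO.

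The beta subunit gene eif2s2 had 123 and 139 TMM in WT and 174 and 114 TMM in pex5 KO. The gamma subunit gene eif2s3, whose product binds GTP and the initiator tRNA, had 117 and 199 TMM in WT and 171 and 127 TMM in pex5 KO. Both overlapped between genotypes. eif2b4 (ENSDARG00000014004, chromosome 20) encodes a subunit of eIF2B, the exchange factor that reloads eIF2 with GTP, and stood at 12.1 and 15.7 TMM in WT and 8.27 and 6.91 TMM in pex5 KO. Its libraries did not overlap, with a ratio of 0.547 and a log2 difference of -0.79 ± 0.53 (95% interval -2.14 to 0.57). The other eIF2B genes were below the filter. All 5 together gave 38 and 30 reads in WT against 29 and 23 in the mutant libraries, not scaled for library size. Of these, eif2b4 gave 17 and 20 reads in WT and 11 and 10 in pex5 KO. Without eif2b4, the summed reads of the others overlapped between genotypes. The eIF2 alpha kinase genes eif2ak2, known in other vertebrates as the double-stranded RNA sensor PKR, and eif2ak3, the endoplasmic reticulum stress sensor PERK, had at most 2 reads in a library, so a difference was not detectable at this depth. No gene with the symbol eif2ak1 or eif2ak4 was found by the rule, so these kinases were covered only in part.

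The eif3 genes had a lower mean in pex5 KO for 13 of 14 with all libraries, but for 8 of 14 without WT replicate 4, 10 without pex5 KO replicate 2 and 11 without either of the others. eIF3 is built from subunits lettered a to m, and the genes of 14 of the 16 listed passed the filter, with means of 10.9 to 215 TMM. eif3g, whose product binds RNA, was the most abundant, with 182 and 307 TMM in WT and 202 and 168 TMM in pex5 KO. It was high in WT replicate 4 alone. eif3i had 184 and 235 TMM in WT and 180 and 147 TMM in pex5 KO, with a log2 difference of -0.35 ± 0.28 (95% interval -1.06 to 0.35). Both mutant libraries were lower, though WT replicate 1 and pex5 KO replicate 1 were nearly equal. The core subunit gene eif3c had 153 and 212 TMM in WT and 189 and 120 TMM in pex5 KO, with overlap.

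2 further eif3 genes separated in the same direction. eif3s10, listed in the annotation under the human name EIF3A and thus the largest scaffold subunit, had 104 and 107 TMM in WT and 99.2 and 76.7 TMM in pex5 KO. The log2 difference was -0.27 ± 0.27. eif3m had 56.8 and 78.5 TMM in WT and 51.1 and 55.3 TMM in pex5 KO, a difference of -0.32 ± 0.29. Its nearest libraries were almost equal, and the gap within WT was larger than the distance between genotypes. The 13 genes with a lower mean lay between -0.43 (eif3ja) and about 0 (eif3k, with means of 11.1 and 10.8 TMM).

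eif3ea (ENSDARG00000090697, chromosome 16) was the exception and had the largest positive difference of the 45 genes. It encodes subunit e, and stood at 9.93 and 19.6 TMM in WT and 30.8 and 24.2 TMM in pex5 KO, from 14, 25, 41 and 35 reads. Both mutant libraries were higher, with a ratio of means of 1.86 and a log2 difference of 0.91 ± 0.42 (95% interval -0.16 to 1.99, unadjusted p = 0.081 in limma). This was the lowest unadjusted p of the 45 factor genes that averaged 10 TMM or more. The second subunit e gene, eif3eb, had 9, 4, 2 and 4 reads in the same order, so that eif3ea gave 60.9% and 86.2% of the reads of the pair in WT and 95.3% and 89.7% in pex5 KO. WT replicate 1 was the library with the lower share, and its Wilson interval of 40.8% to 77.8% was wide.

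**Figure D4:**
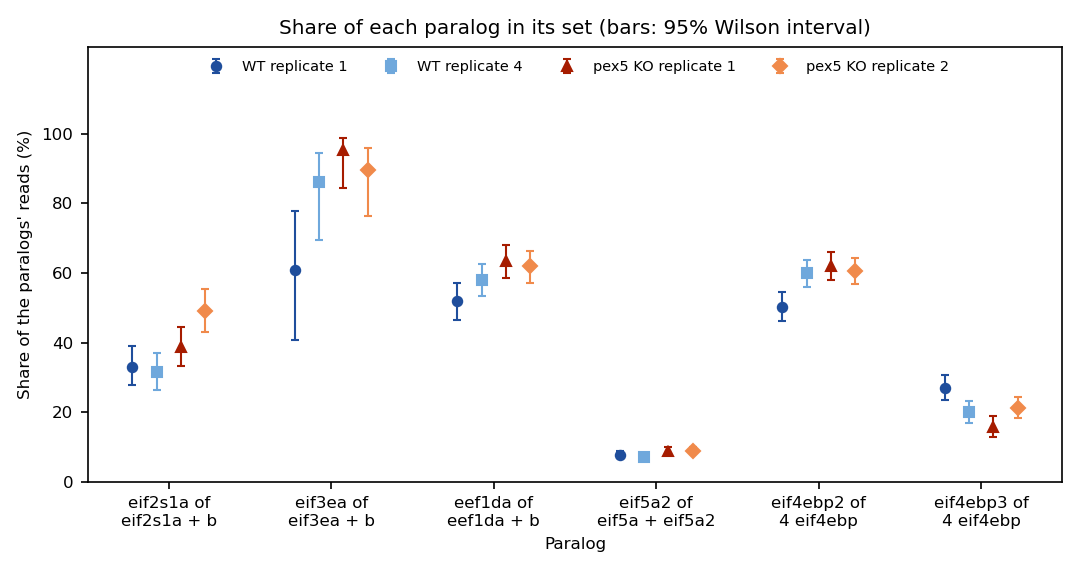
Share of the reads of a paralog set, in percent, held by 6 factor genes in each of the 4 libraries, with 95% Wilson intervals that cover counting error only. The eif2s1a share is 33.1% and 31.4% in WT and 38.8% and 49.2% in pex5 KO, and the eif5a2 share lies between 7.04% and 8.92% throughout.

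The eif4 genes serve the capture of capped mRNA, and no single gene dominated them. eif4a1a, the RNA helicase that unwinds the 5′ leader, had 163 and 318 TMM in WT and 133 and 221 TMM in pex5 KO, a log2 difference of -0.41 ± 0.44 with overlap. eif4a3, a related helicase of the exon junction complex, had 116 and 180 TMM in WT and 110 and 117 TMM in pex5 KO. Both were highest in WT replicate 4. The scaffold gene eif4g2a, whose product lacks the eIF4E site of the other eIF4G proteins, had 12.1 and 12.6 TMM in WT and 9.02 and 10.4 TMM in pex5 KO, without overlap, from 12 to 17 reads in a library. Its log2 difference was -0.32 ± 0.48 (95% interval -1.54 to 0.91). The paralog eif4g2b had the lowest difference of the 45 genes, -0.91 ± 0.60, and is named for that after its values were seen: it had 39.0 and 93.4 TMM in WT and 20.3 and 49.1 TMM in pex5 KO, and overlapped.

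Cap-binding genes were scarce, and eif4e3 was the most abundant of the 5 measured. This gene (ENSDARG00000005078, chromosome 23) stood at 23.4 and 17.3 TMM in WT and 26.3 and 27.7 TMM in pex5 KO, with both mutant libraries higher. The ratio of means was 1.33 and the log2 difference 0.40 ± 0.30 (95% interval -0.37 to 1.18). eif4e2rs1, named as related to eif4e2, had 25 and 18 reads in WT against 18 and 29 in pex5 KO. The genes eif4e2, eif4ea and eif4e1c had at most 15, 5 and 2 reads in a library.

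The 4E-BP inhibitors are inactivated by mTORC1 through phosphorylation. Their 4 genes summed to 396 and 485 TMM in WT and to 419 and 455 TMM in pex5 KO, with overlap. eif4ebp2 was the main one, with 199 and 291 TMM in WT and 260 and 276 TMM in pex5 KO, a log2 difference of 0.15 ± 0.29. eif4ebp3 had 106 and 96.6 TMM in WT and 65.4 and 96.1 TMM in pex5 KO. By the order of the values the genotypes did not overlap, but the nearest libraries were almost equal, and the log2 difference was -0.35 ± 0.30. eif4ebp3l was even across the libraries, with levels of 88.7, 95.02, 90.2 and 79.5 TMM in the order WT replicates 1 and 4 and pex5 KO replicates 1 and 2. eif4ebp1 had 2 and 3 reads in WT and 5 and 5 in pex5 KO. Within the 4 genes, eif4ebp2 gave 50.4% and 60.0% of the reads in WT and 62.0% and 60.6% in pex5 KO, so that WT replicate 1 stood apart and the rest did not.

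Among the eef genes, eef2b and eef1a1l1 were the 2 most abundant factor genes of the liver. eef2b (ENSDARG00000100371, chromosome 2) encodes the eEF2 translocase, and had 2698 and 3713 TMM in WT and 3372 and 1831 TMM in pex5 KO. It was low in pex5 KO replicate 2 alone, with a log2 difference of -0.35 ± 0.35 (95% interval -1.24 to 0.55) that became 0.09 without that library. eef1a1l1, the main eEF1A gene here, had 2079 and 2670 TMM in WT and 2299 and 1938 TMM in pex5 KO, a difference of -0.16 ± 0.22. The ratio of eef2b to eef1a1l1 was 1.30, 1.39, 1.47 and 0.945 in the order WT replicates 1 and 4 and pex5 KO replicates 1 and 2. Each of these genes supplied nearly all reads of its family: eef1a1l1 at least 98.6% of eef1a and eef2b at least 99.2% of eef2 reads in every library.

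The minor eEF1A gene eef1a1a had the widest spread of the factor genes tested. It had 29.8 and 2.36 TMM in WT and 9.77 and 25.6 TMM in pex5 KO, from 42, 3, 13 and 37 reads. It was high in WT replicate 1 and pex5 KO replicate 2, the libraries with neural marker sums of 648 and 456 TMM, and low in the libraries with 37.7 and 62.4 TMM. The part of neural RNA in this was not tested. Its log2 difference of 0.73 ± 1.16 became -0.86 without WT replicate 4. eef2l2, an eEF2-like gene, was also higher in those libraries, with 17 and 20 reads against 10 and 7. The eef1a1l2 gene had 3 reads in pex5 KO replicate 2 and 0 elsewhere, and eef2a.1 had at most 8 reads in a library.

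eEF1A is recharged with GTP by an exchange complex, whose gamma subunit gene eef1g had 1098 and 1474 TMM in WT and 1367 and 1018 TMM in pex5 KO. The delta subunit gene eef1da, named after its values were seen because its paralog eef1db separated the genotypes, had 121 and 199 TMM in WT and 184 and 182 TMM in pex5 KO, and its log2 difference ranged from -0.12 to 0.60 with a library left out. Its paralog eef1db had 112 and 144 TMM in WT and 106 and 112 TMM in pex5 KO, a log2 difference of -0.22 ± 0.27. The order of the eef1db values put both mutant libraries below WT, though pex5 KO replicate 2 and WT replicate 1 were nearly equal. eef1da gave 51.8% and 58.0% of the reads of this pair in WT and 63.5% and 62.0% in pex5 KO. The Wilson interval of WT replicate 4 (53.3% to 62.5%) overlapped those of both mutant libraries. That of WT replicate 1 (46.4% to 57.2%) lay below both, though barely below that of pex5 KO replicate 2 (57.3% to 66.5%).

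eef2k, the kinase that inhibits eEF2 when nutrients are low, was below the filter. The WT libraries had 20 and 14 reads and the pex5 KO libraries 9 and 8, or 14.2, 11.0, 6.76 and 5.53 TMM. Both mutant libraries were lower, with a ratio of means of 0.488. In the limma fit with the filter lowered to 1 TMM, the log2 difference was -0.92 ± 0.44 (95% interval -1.99 to 0.15). In that limma fit eef2k had an unadjusted p = 0.079 and an adjusted p = 1.00, and it did not pass.

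The eif1, eif5 and eif6 genes had the smallest gaps between replicates, with a median absolute log2 gap of 0.22 within WT and 0.12 within pex5 KO. eif5a, whose hypusine-bearing product helps ribosomes through difficult peptide bonds, had 1616 and 1919 TMM in WT and 1790 and 1920 TMM in pex5 KO, a log2 difference of 0.07 ± 0.19. Its paralog eif5a2 (ENSDARG00000056186, chromosome 2) had 134 and 145 TMM in WT and 173 and 188 TMM in pex5 KO. Both mutant libraries were higher, with a ratio of means of 1.29 and a difference of 0.37 ± 0.24 (95% interval -0.26 to 0.99). eif5a2 gave 7.66% and 7.04% of the reads of the pair in WT and 8.81% and 8.92% in pex5 KO, and the Wilson interval of WT replicate 1 (6.68% to 8.78%) overlapped those of both mutant libraries.

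eif1, which guards the choice of the start codon, had 993 and 1064 TMM in WT and 826 and 981 TMM in pex5 KO, a log2 difference of -0.19 ± 0.21. Both mutant libraries were lower, though WT replicate 1 and pex5 KO replicate 2 were nearly equal. eif5, which triggers GTP hydrolysis by eIF2 at the start codon, had 84.4 and 72.2 TMM in WT and 66.1 and 67.7 TMM in pex5 KO, a difference of -0.22 ± 0.26. Both mutant libraries were again lower. eif6, which keeps the large ribosomal subunit from joining too early, had 8.52 and 11.0 TMM in WT and 15.0 and 12.4 TMM in pex5 KO, a difference of 0.46 ± 0.47, with both mutant libraries higher.

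Leaving out each library in turn, 20 of the 45 genes kept the sign of their difference, 15 of them lower and 5 higher in pex5 KO. The 5 were eif2s1a, eif3ea, eif4e3, eif5a2 and eif6, and like the 9 genes that separated downwards they keep their sign by construction, since their genotypes did not overlap. Of the 29 tested genes picked by the naming rule given below, 12 turned sign when some library was left out. Among them were eef2b, eef1a1l1, eef1g and eif5a. Of the tested genes named outside that rule, eef1da, eif3ja and eif3k also turned sign. With 2 libraries a genotype, an exact two-sided permutation test cannot give a p below 0.333, so no single gene could pass by that test.

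The remaining machinery of translation gave a background to these values. Of 77 cytosolic ribosomal protein genes tested, 43 had a higher and 34 a lower mean in pex5 KO, with a median log2 difference of 0.02, and WT replicate 4 exceeded WT replicate 1 for 70. Of 11 aminoacyl-tRNA synthetase genes tested, which load amino acids onto tRNAs, 10 had a lower mean, with a median of -0.47. pex5 KO replicate 2 was the lowest library for 8 of the 11. Of 3 termination and recycling genes tested 2 had a lower mean, as had 2 of 3 poly(A) binding genes, and targets of the integrated stress response, the programme set off by eIF2 alpha phosphorylation, were split at 2 higher and 2 lower of 4 tested. The test called 0 genes of these lists.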

How the data were processed

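Per the labels and the study's methods, 3′-end libraries were made from liver RNA by CEL-Seq2 with unique molecular identifiers. Samples were not combined with each other for library amplification, which does not say whether livers were pooled within a sample. The authors processed them with UMI-tools 1.1.1, Trim Galore 0.6.7, HISAT2 2.2.1 against GRCz11 and featureCounts 2.0.1, removed duplicate identifiers, used edgeR for TMM scaling of the counts and deposited the result as log2(TMM + 1). The annotation release, the strand setting and the treatment of reads shared by near-identical paralogs are not given in the sources used here, so values of paralog pairs are uncertain to that extent.

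The logarithm was undone, and 100% of the values were whole multiples of a step for each library within 0.1 reads, which gave the reads behind each value. Genes averaging 10 TMM or more were tested on the deposited log2 values with limma 3.58.1 (lmFit, eBayes with trend; R 4.3.3) and Benjamini-Hochberg adjustment over all 3349, at 0.05. Group medians, counts and shares are descriptions. Wilson 95% intervals cover counting error only. Python 3.11.15, pandas 2.3.3, scipy 1.17.1 and matplotlib 3.10.9 were used for the rest.

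The genes, groups and lists were chosen with earlier results of these data known. Genes named were, in each group, the 3 with the highest mean, those without overlap between genotypes (up to 4 a direction), those with an unadjusted p under 0.05, and, at any level, the eif4ebp, eif4e, eif2ak, eef1a and eef2 genes with eef2k. The genes eef1da, eif3eb, eif3ja, eif3k, eif4a1b and eif4g2b were named outside this rule, after their values were seen. Human names came from a table with an entry for all 74 genes. For some of them, among them eef2b, eif3ea and eif5a, the entry gave no human name. Alternatives covered the pseudocount (0.5 and 5 TMM), the filter (1 and 30 TMM), the scaling, voom weights and each library left out. Sequences and gene coordinates were not used here.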

Additional observations from a re-analysis of the deposited data

How the results depend on the processing

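The count of factor genes called was 0 under every alternative run on all 4 libraries, and so was the count over all genes tested. Without a library, the eif2 median ranged from -0.46 to 0.16, and it was 0.16 without pex5 KO replicate 2, where pex5 KO replicate 1 stood alone and was assumed to vary like WT. The count of genes with a lower mean in pex5 KO, followed across the alternatives after the data had been seen, was 31 to 37 of 45 under other pseudocounts, scalings and voom weights (36 and 37 under the 2 scalings, where 58.8% and 62.3% of all genes were also lower), and 22 to 33 with a library left out. It was 46 of 64 with a filter of 1 TMM and 28 of 36 with one of 30 TMM. Scaling all libraries to the same total of TMM moved the median of all genes from 0.00 to -0.09, and doing so without the mitochondrial genome moved it to -0.12, where the medians were -0.31 for eif2, -0.40 for eif3, -0.31 for eif4 and -0.24 for eef. Under that last scaling the log2 difference was -0.026 for eif2s2, -0.072 for eif4e2rs1 and -0.060 for eif5a, and under the same total -0.036 for eif4e2rs1 and -0.022 for eif5a, each of them above 0 as deposited. With a library left out, 12 of the 29 tested genes picked by the naming rule turned direction. Their log2 differences ranged as follows: eef2b -0.79 to 0.092, eef1a1l1 -0.34 to 0.022, eef1g -0.32 to 0.10, eef1a1a -0.86 to 2.33, eif2s3 -0.43 to 0.33, eif2s2 -0.19 to 0.41, eif3g -0.73 to 0.021, eif3c -0.58 to 0.068, eif4ebp2 -0.12 to 0.42, eif4a1a -0.89 to 0.072, eif4e2rs1 -0.21 to 0.32 and eif5a -0.050 to 0.20. Of the tested genes named outside the rule, eef1da (-0.12 to 0.60), eif3ja (-0.88 to 0.021) and eif3k (-0.29 to 0.29) also turned. eif4g2b kept its sign. The cause was not tested beyond the libraries named. No paired analysis was possible because the labels give no pairing of libraries between genotypes. Of the 29 genes under 10 TMM, 19 entered the fit with a filter of 1 TMM and 10 were in no fit. In that fit limma called 0 of the 19 and 0 of all 9124 genes. An unadjusted p under 0.05 was found for 0 of the 19 and for 226 of the 9124.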
